A study of Mus musculus with 2 samples.

Results

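Poly(A)-binding proteins, their partners and the Y-box proteins were followed in testes of 17 day old mice with and without the ubiquitin ligase UBR2. The set has 9 genes, chosen by name as the members of these families that the array reads with a probe set of 1 gene symbol, out of 12393 genes read that way: Pabpc1, Pabpc2, Pabpc4, Pabpn1, Paip1, Paip2, Ybx1, Ybx2 and Ybx3. Pabpc2 and Ybx2 were set apart as germ cell members and the other 7 were taken as general ones. The genes were chosen with the ratios of these same 2 arrays already known, so every difference below is a description. Testes of wild type mice were compared with testes of UBR2-/- mice, both on a mixed 129SV and C57BL background and both untreated. There was 1 Affymetrix array for each genotype (n = 1), and the labels name 2 testes from different littermates per genotype. The sources used here do not say how the allele was made, whether the testes were pooled or what share of the tissue each cell type took.

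A messenger RNA carries a tail of adenosines. In the cytoplasm this tail is covered by poly(A)-binding proteins, which protect the message and help ribosomes to start on it, and in the nucleus a separate protein controls how long the tail is made. Y-box proteins carry a cold shock domain, coat messenger RNA and can keep it stable and untranslated. Male germ cells depend on such storage, because many messages of the spermatid are made well before they are translated, and they use germ cell versions of both families.

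The 9 genes were read by 17 probe sets, of which 15 had a mean signal at or above the floor and 2 lay below it on both arrays. A signal is the brightness that the authors' processing gives for a probe set, on a linear scale, and the floor is the 40th percentile of an array, 24.4 for wild type and 24.7 for UBR2-/-. Log2 ratios are UBR2-/- over wild type for the brightest probe set of a gene, with signals under the floor raised to it. A single array per genotype allows neither a replicate check nor a test. The only error measured was the disagreement between probe sets of 1 gene, with an SD of 0.13 on the log2 scale for bright, 0.19 for intermediate and 0.26 for dim probe sets, and it leaves out any error between arrays or animals. Over all 8091 genes compared the median log2 ratio was 0.07. The targeted gene Ubr2 read 57.2 in wild type and 14.3, below the floor, in UBR2-/-, at least 2.32-fold lower.

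Among the 9 members, 3 were lower in UBR2-/- by 2-fold or more, 0 were higher by that much and the remaining 6 were within 2-fold. Of all genes compared, 3.52% were lower and 0.346% higher by 2-fold or more. At 1.5-fold, 3 members were lower beside 7.71% of all genes and 2 were higher beside 4.25%. Those 2, Pabpc4 and Paip1, were less than 1.5-fold higher with the mean over probe sets and with spike-in scaling. At 3-fold, 2 members (Pabpc2 and Ybx3) were lower beside 1.5% of all genes and 0 were higher beside 0.0371%. The 3 genes lower by 2-fold were Pabpc2, Ybx2 and Ybx3, that is both germ cell members and 1 of the 7 general ones. Since this contrast was in view when the genes were chosen, nothing is read from the share. The median log2 ratio was -0.15 over the 9 members and 0.02 over the 7 general ones. The mean of Pabpc2 and Ybx2 minus the median of the general members was -2.37 on the log2 scale.

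**Figure D1:**
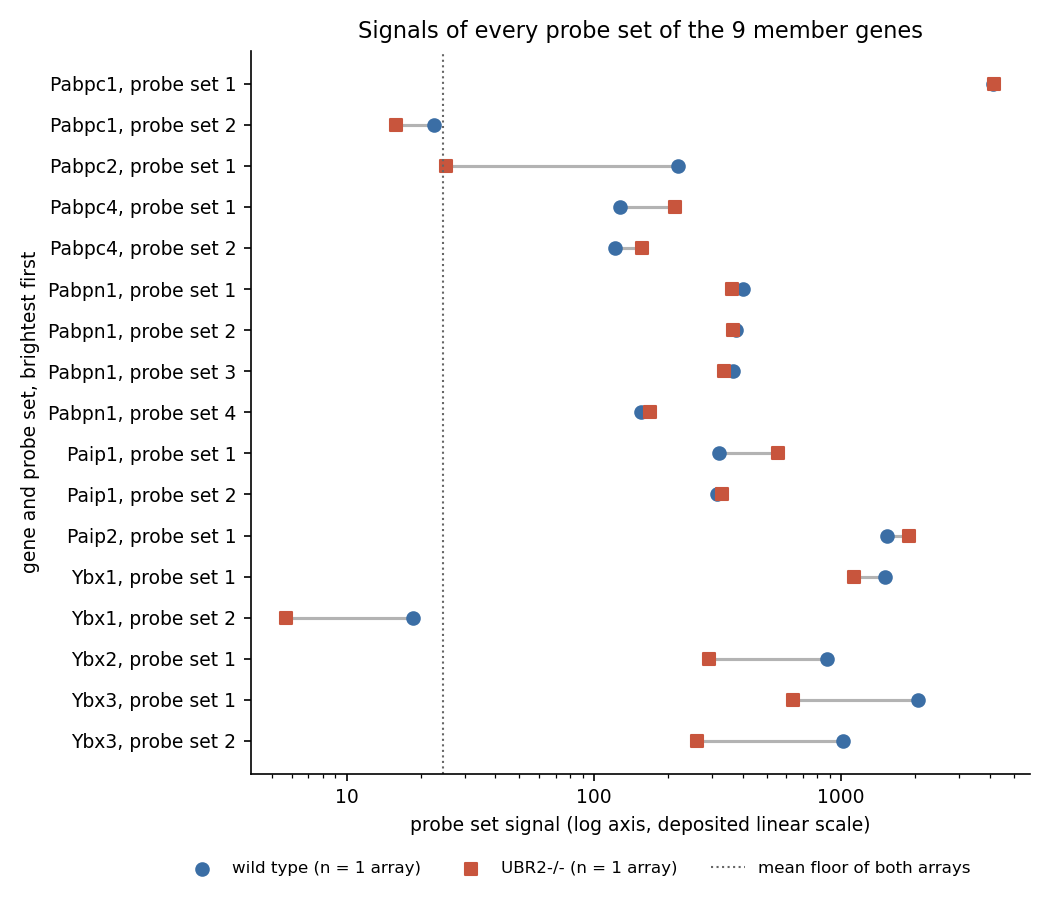
Signal of each of the 17 probe sets of the 9 genes on the wild type array (circles) and the UBR2-/- array (squares), on a log axis, with the mean floor as a dotted line. The squares of Pabpc2, Ybx2 and both probe sets of Ybx3 sit far to the left of the circles, while Pabpc1 at 4101.8 and 4171.2 shows hardly any gap. The dim second probe set of Ybx1, at 18.6 and 5.7, also shows a wide gap, but both of its signals lie below the floor.

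Pabpc2, the germ cell poly(A)-binding protein, was farthest from 0. It is encoded by an intronless gene that arose as a copy of a cytoplasmic poly(A)-binding protein gene, and it is known from pachytene spermatocytes and spermatids. Its 1 probe set read 218.7 in wild type and 25.2 in UBR2-/-. The UBR2-/- value lay just above the floor of 24.7, so the ratio of 8.68-fold lower (log2 ratio -3.12) is little more than a bound, and with the floor at the 60th percentile it was -1.29. Of 8091 genes, 17 had a lower ratio.

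The general cytoplasmic poly(A)-binding proteins lay close to or above the median of all genes. Pabpc1, the main cytoplasmic form in most tissues, read 4101.8 in wild type and 4171.2 in UBR2-/-, a log2 ratio of 0.02. Its ratio was -0.26 with quantile normalization, -0.22 with loess and -0.33 with spike-in scaling, so its sign depends on the scaling, and relative to the median of all genes it lay between -0.33 and -0.04 in 9 settings. The log2 ratios of Pabpc2 and Pabpc1 differed by -3.14. The dim second probe set of Pabpc1, at 22.6 and 15.8, was below the floor on both arrays and gives no ratio. Pabpc4, an inducible form first found in activated T cells, went the other way, with 127.5 and 212.4 in its brightest probe set (1.67-fold higher, log2 ratio 0.74) and 121.7 and 155.9 in the other (0.36). The gap of 0.38 between its probe sets was reached or passed by 16.7% of the 1013 genes with probe sets of like signal. The brightest probe set of Pabpc4 is of a kind (names ending in _x_at) that can bind several transcripts.

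The nuclear protein and the partners showed smaller or less certain differences. Pabpn1, which binds the growing tail in the nucleus, was read by 4 probe sets. They had 401.5 and 362.7, 375.7 and 366.6, 364.3 and 335.4, and 155.3 and 168, wild type first in each. Their log2 ratios ran from -0.15 to 0.11, so the probe sets lay on both sides of 0. Paip1, which binds poly(A)-binding protein and promotes translation, had 320.1 and 553.9 in its brightest probe set, a log2 ratio of 0.79 that only 90 genes of 8091 exceeded. Its other probe set read 316.1 and 329.4, a log2 ratio of 0.06. This gap of 0.73 was reached or passed by 9 of 1014 genes with bright probe sets, and the mean over both probe sets was 0.43, so the height of Paip1 rests on 1 of its 2 probe sets. Paip2, which displaces poly(A)-binding protein from the tail and restrains translation, had 1532.4 and 1881.7 in 1 probe set, a log2 ratio of 0.30 that became -0.06 with spike-in scaling. The bacterial spike-in controls themselves had a median of 0.35, and dividing by it takes the median of all genes from 0.07 to -0.27. Relative to that median Paip2 stayed above 0 in all 10 settings, between 0.12 and 0.23.

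**Figure D2:**
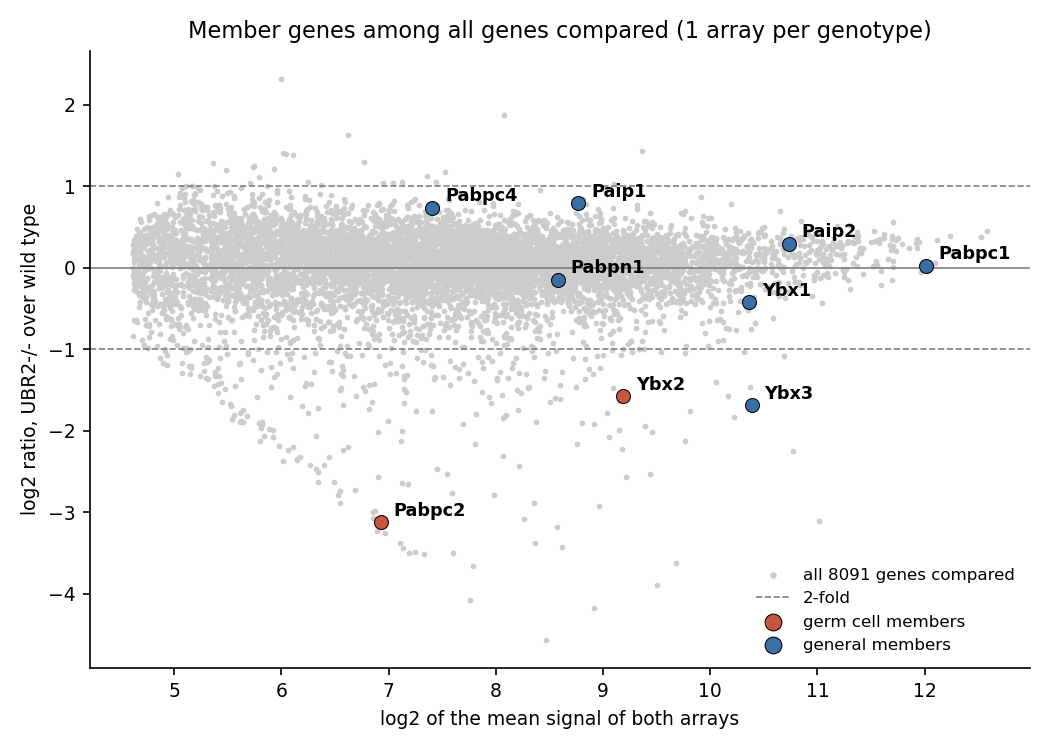
Log2 ratio of UBR2-/- over wild type against log2 of the mean signal of both arrays for 8091 genes (grey), with the germ cell members Pabpc2 and Ybx2 in red and the 7 general members in blue, and 2-fold as dashed lines. Ybx3 lies beside Ybx2 below the lower dashed line, and the other general members lie between the lines.

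All 3 Y-box genes lay below the median of all genes. Ybx2 (also MSY2), the Y-box protein of germ cells, which binds and stabilises messages of spermatocytes and spermatids, read 874.4 in wild type and 292.9 in UBR2-/- in its 1 probe set, 2.99-fold lower (log2 ratio -1.58). Ybx3 (also MSY4), found in testis germ cells as well as in other tissues, was read by 2 bright probe sets. They had 2049.4 and 636.5, which is 3.22-fold lower (-1.69), and 1014.6 and 261.5, which is 3.88-fold lower (-1.96). Both probe sets thus gave a lower UBR2-/- signal, and the gap of 0.27 between them was reached or passed by 17.2% of genes with bright probe sets. Ybx3 was counted among the general members. Its brightest probe set differed from that of Ybx2 by -0.11, less than the SD of 0.13 of 1 bright probe set. That SD is not for a difference between genes, and the other probe set of Ybx3, at -1.96, lay farther from Ybx2 at -1.58. Ybx1 (also YB-1), the widely expressed family member, had 1511.1 and 1126.6, 1.34-fold lower (-0.42), and 915 of 8091 genes had a lower ratio. The log2 ratio minus that of Ybx1 was -1.15 for Ybx2 and -1.26 for Ybx3. A dim second probe set of Ybx1, at 18.6 and 5.7, was below the floor on both arrays. Without Ybx3, the median of the remaining 6 general members was 0.16 and the difference of the germ cell members from it was -2.51.

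The promoter windows of the 3 Y-box genes are shown because the family is named for binding the Y-box, an inverted CCAAT element. A further reason is that Ybx2 and Ybx3 were lower by 2-fold or more while Ybx1 was not. Each window runs 5′ to 3′ on the gene's strand from 250 bases before to 50 bases after a transcript start in the RefSeq table of build GRCm38.p6, and capitals mark CCAAT on either strand (ATTGG where it lies on the other strand). The window of Ybx2 is chr11:69935649-69935948 on the plus strand, that of Ybx3 chr6:131388401-131388700 on the minus strand and that of Ybx1 chr4:119294464-119294763 on the minus strand.
Ybx2: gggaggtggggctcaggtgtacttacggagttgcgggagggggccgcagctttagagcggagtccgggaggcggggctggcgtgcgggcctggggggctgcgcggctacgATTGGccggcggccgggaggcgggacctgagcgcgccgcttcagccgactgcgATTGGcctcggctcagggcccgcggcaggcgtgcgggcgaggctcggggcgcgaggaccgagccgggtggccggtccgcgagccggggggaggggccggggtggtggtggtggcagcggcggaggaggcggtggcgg
Ybx3: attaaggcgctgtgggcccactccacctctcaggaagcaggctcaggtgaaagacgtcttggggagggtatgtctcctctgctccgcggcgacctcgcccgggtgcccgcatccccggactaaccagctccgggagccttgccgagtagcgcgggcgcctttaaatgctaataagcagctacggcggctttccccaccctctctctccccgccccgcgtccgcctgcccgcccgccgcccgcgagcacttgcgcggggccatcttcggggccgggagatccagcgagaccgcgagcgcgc
Ybx1: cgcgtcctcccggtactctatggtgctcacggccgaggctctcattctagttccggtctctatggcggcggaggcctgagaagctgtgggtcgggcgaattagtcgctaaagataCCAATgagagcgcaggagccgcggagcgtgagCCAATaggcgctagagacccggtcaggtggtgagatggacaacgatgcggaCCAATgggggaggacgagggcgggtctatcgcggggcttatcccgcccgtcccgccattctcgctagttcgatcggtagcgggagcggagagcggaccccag
The Ybx2 window held 2 matches of CCAAT, both on the other strand, with first bases at -140 and -87 from the start. The Ybx1 window held 3, at -135, -103 and -52, and the Ybx3 window held 0. A further RefSeq start of Ybx2 had 0 in its window. Of all 32851 windows of this length, 37.4% held at least 1 match, 11.7% at least 2 and 3.37% at least 3, so such matches are common. The cyclic AMP response element TGACGTCA was in none of these windows and in 1.79% of all. The printed windows of Ybx2 and Ybx3 thus did not share a CCAAT match.

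The 3 lower members were then set beside markers of the germ cell stages, since all were read in whole testis, where fewer cells of a type and less RNA per cell cannot be told apart. Of 9 compared markers of pachytene and later spermatocytes, 8 were lower in UBR2-/- by 2-fold or more and 0 higher, with a median log2 ratio of -3.11 and a summed signal of 9672.3 in wild type and 1531.4 in UBR2-/-. None of them was at 0 on either array, and 3 were below the floor in UBR2-/-, so their ratios and this median are upper limits. Of 6 early meiotic prophase markers 1 was 2-fold lower, Spo11 at -1.27, with a median of -0.04 and summed signals of 10083.1 and 9504.8. The log2 ratio of Pabpc2 lay inside the range of the pachytene markers, with 4 of 9 lower, among them Adam3, a sperm surface protein (at least 10.8-fold lower), and 3 of 9 higher, among them the germ cell lactate dehydrogenase Ldhc at -3.11. The remaining 2, Pgk2 and the cyclin Ccna1, were under the floor in UBR2-/- and cannot be ordered against it. The order of Pabpc2 and Ldhc is not settled either, since the 2 probe sets of Ldhc, at -3.19 and -3.11, lay on both sides of Pabpc2 at -3.12. With its UBR2-/- signal just above the floor, the ratio of Pabpc2 is here too little more than a bound. For Ybx2 and for Ybx3, 7 of 9 pachytene markers had a lower ratio and 1, the chaperone Hspa2 at -0.90, a higher one, while Ccna1 (at least 2.11-fold lower) cannot be ordered against them. All 6 early prophase markers had higher ratios than Ybx2, Ybx3 and Pabpc2. Ybx1 at -0.42 had 9 of 9 pachytene markers and 1 of 6 early prophase markers below it. Of 10 Sertoli cell markers 1 was 2-fold lower, the hormone gene Amh at 59.7 and 25.5, and 0 higher, with a median of 0.35 and summed signals of 8754.4 and 11297.7. The UBR2-/- signal of Amh lay just above the floor of 24.7. With a floor at the 60th percentile or a pseudocount of 10, 0 Sertoli markers were 2-fold lower. The part of these cell types in the member ratios was not tested.

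The medians of the marker lists of other cell types lay nearer to 0 than that of the pachytene markers. Spermatogonia markers had a median of 0.26 over 7 genes, Leydig 0.21 over 4, peritubular myoid 0.49 over 5, macrophage -0.06 over 5 and endothelial 0.14 over 4. With spike-in scaling the medians of the spermatogonia, Leydig and Sertoli lists turned to -0.09, -0.15 and -0.0026, that of the myoid list was 0.14 and that of the macrophage list -0.41. The early prophase median was -0.40 with that scaling and -0.23 with quantile normalization and with loess. Across these 5 lists only 1 gene was beyond 2-fold, the spermatogonial Id4 at -1.07. Its 3 probe sets ran from -1.07 to -0.65, and with the mean over probe sets 0 spermatogonia markers were 2-fold lower. The endothelial Kdr had 14.5, below the floor, and 36.9, so it was at least 1.51-fold higher. With the floor at the 25th percentile 1 endothelial marker was 2-fold higher. Des and Ptprc were also below the floor in wild type and Pecam1 in UBR2-/-, so their folds are bounds. The 2 erythrocyte genes read by the array were below the floor on both arrays.

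Genes with a ratio near that of the germ cell members were looked up among genes whose wild type signal was within 2-fold of theirs. For Pabpc2, among 3601 such genes, the nearest were Gtf2a1l, a germ cell relative of a general transcription factor (207.2 and 24.5, at least 8.39-fold lower), Tmem267 (231.4 and 6.8, at least 9.37-fold lower) and Mgat4d (206.3 and 25.9, log2 ratio -2.99). For Ybx2, among 1564, they were Lyar at -1.57, Cklf at -1.60 and Zfp318 at -1.61. Likeness here means a small difference in 1 log2 ratio over 2 arrays, at most 0.031 for the genes near Ybx2 and 0.12 for Mgat4d. The UBR2-/- signals of Gtf2a1l and Tmem267 lay below the floor, so their ratios are bounds and their place beside Pabpc2 is set by the floor.

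Other genes that act on the poly(A) tail or store messages mostly lay near 0. Over 7 further lists with 138 genes, 98 were read by a probe set with 1 symbol and 89 were compared. By 2-fold or more, 4 of them were lower and 1, Prm1, was higher, with 84 nearer to 0. Their median was -0.04, beside 0.07 over all genes. The 4 lower ones were Papolb, Boll, Pgk2 and Acr. Their share of 4.49% is close to the 3.52% of all genes.

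**Figure D3:**
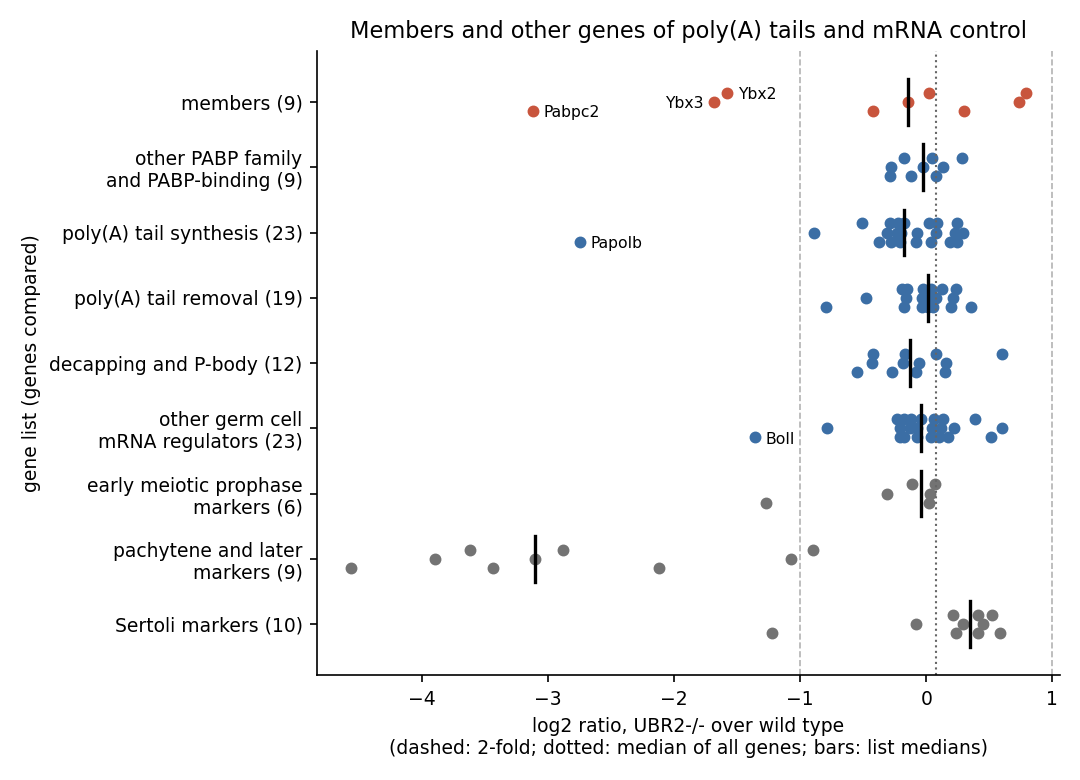
Log2 ratios of UBR2-/- over wild type for the 9 members (red), 5 further gene lists (blue) and 3 marker lists (grey), 1 point per compared gene, with bars at list medians, dashed lines at 2-fold and a dotted line at the median of all genes, 0.07. Papolb and Boll are the only points of the blue lists beyond 2-fold, and the pachytene markers have a median of -3.11. The lists of other cold shock genes and of messages stored in spermatids, with fewer than 4 compared genes each, are not drawn. In the latter, Pgk2, Acr and Prm1 were beyond 2-fold. Papolb, Btg4 and 3 pachytene markers are drawn at their bound.

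Among genes that make the tail, the testis poly(A) polymerase stood apart. Papolb, an intronless germ cell gene whose enzyme lengthens tails in the cytoplasm, read 165.6 in wild type and 21.8, below the floor, in UBR2-/-, at least 6.70-fold lower. The general enzyme Papola had 860.2 and 816.4, a log2 ratio of -0.08 by the brightest and 0.24 by the highest of its 4 probe sets. Of 23 compared genes of this list, Papolb was the only one beyond 2-fold, and the median was -0.18. Cpeb2, which binds cytoplasmic polyadenylation elements, had 302.1 and 162.6 (-0.89), while the related Cpeb1, Cpeb3 and Cpeb4 had 0.29, 0.24 and -0.38. Tent5c, a cytoplasmic poly(A) polymerase, had 72.8 and 51.1 (-0.51). Cstf2t, the intronless germ cell form of a cleavage stimulation factor subunit, had 667.4 and 545.7 (-0.29), and the X-linked Cstf2 that it resembles had 402.6 and 476.6 (0.24).

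Germ cell and general genes of a kind were compared as pairs. The log2 ratio of the germ cell gene minus that of the general gene was -3.14 for Pabpc2 and Pabpc1, -2.67 for Papolb and Papola (with Papolb at the floor), -1.15 for Ybx2 and Ybx1 and -0.53 for Cstf2t and Cstf2. In the pair of Ybx2 and Ybx3 it was 0.11. The pair of Lsm14b and Lsm14a, storage granule proteins, gives no difference, since Lsm14a was at 0.5 and 0.3, below the floor, while Lsm14b had 446.8 and 396.7 (-0.17).

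Of 19 compared genes for tail removal 0 were beyond 2-fold, and the median was 0.02. The subunits Cnot2 and Cnot3 of the main deadenylase complex had 0.13 and 0.04. Farthest from 0 were Angel1 of a deadenylase-related family at -0.79 (179.7 and 103.7), the dim Btg4, which recruits the deadenylase in oocytes, at 34.4 and 16.5 (at least 1.39-fold lower), and the deadenylase Parn at 0.36. Of 12 compared decapping and P-body genes, whose products remove the cap or gather resting messages, 0 were beyond 2-fold and the median was -0.13. Dcp1a, Edc4, Lsm2 and Lsm7 had 0.14, -0.42, -0.43 and -0.55, and the scavenger decapping enzyme Dcps had 0.60.

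Genes that bind poly(A)-binding protein or belong to its family, other than the members, had 0 of 9 beyond 2-fold and a median of -0.03. The relative Paip2b had 485.2 and 502 (0.05). Zc3h14, a nuclear poly(A)-binding zinc finger protein, had 929 and 761.7 (-0.29) and -0.52 in its other probe set, and Larp1, which binds messages of the translation machinery, had 627.6 and 517.1 (-0.28). The X-linked termination factor gene Gspt2 had 0.28. Carhsp1 and Lin28a, which also carry a cold shock domain, had 254.2 and 339.4 (0.42) and 113.1 and 147.2 (0.38), so both lay on the other side of 0 from the Y-box genes, although the spike-in median log2 ratio of 0.35 would bring them close to 0.

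Of 23 compared germ cell regulators of messages outside these families 1 was beyond 2-fold. It was Boll, a relative of Dazl, with 399.2 and 155.8 (2.56-fold lower, -1.36). Dazl itself, used from early germ cells on, had 2509.1 and 2749.7 (0.13), Dazap1, a partner of the DAZ proteins, had 530 and 306.7 (-0.79), and the dim Stau2 had 0.60 with 3 probe sets from 0.28 to 0.82. The median of the list was -0.04.

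Messages known to be stored in spermatids were mostly too dim at this age to be followed. Of 12 listed genes 11 were read and 3 compared, and 8 were below the floor on both arrays, among them the transition protein genes Tnp1 and Tnp2 and the protamine gene Prm2. Pgk2, a germ cell glycolytic enzyme, had 107.4 and 4.1 (at least 4.35-fold lower), and Acr, the acrosomal protease, had 123.8 and 20.5 (at least 5.01-fold lower). Prm1 went the other way at 35.3 and 94, a dim gene whose 3 probe sets ranged from 0.35 to 1.55. So the messages that Ybx2 is best known to hold were for the most part below the floor, and no relation of their levels to that of Ybx2 was measured.

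Each member's ratio was recomputed under other scalings, floors and choices of probe set. Relative to the median of all genes in the same setting, Ybx2 lay between -1.66 and -1.62 in 9 settings and Ybx3 between -1.89 and -1.74 in 9. Ybx1 lay between -0.56 and -0.49 in 10 settings. Pabpc2 lay between -3.21 and -1.35 in 10, the upper end coming from the floor at the 60th percentile. Pabpc4 lay between 0.48 and 0.67 in 9 settings and Paip1 between 0.36 and 0.74 in 10. Pabpn1 lay between -0.23 and -0.11 in 10. No member thus crossed the median of all genes in any of these settings. No setting used the dimmer probe set of Paip1 or the dimmest of Pabpn1 alone. Those lay at 0.059, below the median of 0.075, and at 0.11, above it. The side on which Paip1 and Pabpn1 lie therefore depends on the probe set.

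**Figure D4:**
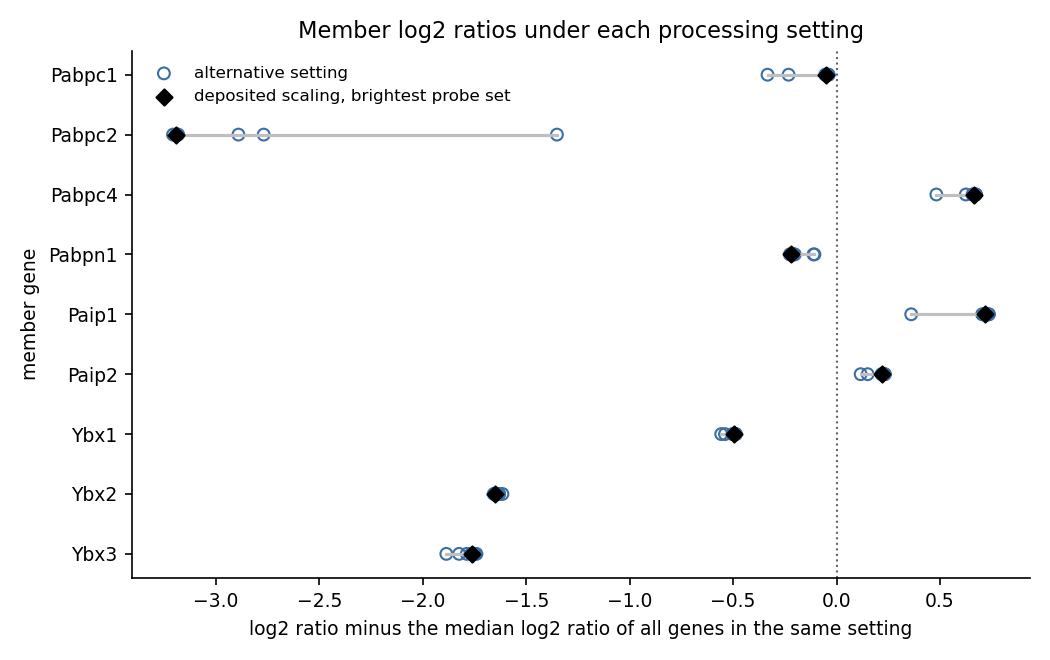
Log2 ratio of each member minus the median log2 ratio of all genes in the same setting, for the deposited scaling with the brightest probe set (diamonds) and the alternatives (open circles), with a dotted line at 0. Ybx2 and Ybx3 vary little, Pabpc2 reaches -1.35 under a 60th percentile floor, and no member changes sides of the dotted line in these settings.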

How the data were processed

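Total RNA of testes was labelled with biotin and hybridised to Affymetrix 430A 2.0 mouse arrays, per the labels. The values are intensities as deposited by the authors, 1 linear signal per probe set, and the submitters' processing notes name MAS5, without a version, settings or detection calls in the sources used here. The 2% trimmed mean of both deposited arrays was 150.04, which shows a common scaling, and it was kept. The authors' background and mismatch handling can move dim signals most.

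Of 22690 probe sets 64 were controls. Of the others, 20380 carried a single symbol in the platform's annotation (possibly outdated), 691 several and 1555 none, and those with a single symbol were used. By Entrez identifier 20351 of them matched the RefSeq gene table of GRCm38.p6, used for names and chromosomes. Signals under the 40th percentile of an array were raised to it, the brightest probe set stood for its gene, and the 8091 genes whose mean signal reached the mean floor were compared at a threshold of 2-fold. Where 1 array was under the floor the fold is a lower bound, written as at least. Lists with fewer than 4 compared genes got no median. Probe set SDs came from the median absolute deviation of the log2 ratio between the 2 brightest probe sets of 3040 genes, divided by the square root of 2. Only the number of arrays, 1 per genotype, sets the precision, so no p-value is given. The calculation was tested on simulated data. Python 3.11.15 with numpy 2.4.6, pandas 2.3.3 and statsmodels 0.14.6 was used.

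The members and gene lists were chosen with earlier results of these data known. Named genes were the members, Ubr2, the pairs, from each list the first 2 compared genes, the 3 farthest from 0 and those beyond 2-fold, and the 3 genes nearest to Pabpc2 and to Ybx2. A few further genes were named after their values were seen: Cpeb1, Cpeb3, Cpeb4, Tnp1, Tnp2, Prm2 and Hspa2. Of the marker lists only genes a comparison turns on are named. Promoter windows came from a RefSeq table that held 6 of the 9 members, all except Pabpc1, Pabpc2 and Paip2. Alternatives were scaling to the median, quantile normalization, loess (span 0.3), spike-in scaling, a floor at the 25th or the 60th percentile, a pseudocount of 10 in place of a floor, averaging over probe sets, no probe sets named _s_at, _x_at or _a_at, and thresholds of 1.5-fold and 3-fold. Leaving Ybx3 out of the general members was added after seeing the data.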

Additional observations from a re-analysis of the deposited data

How the results depend on the processing

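Of 77 member ratios under the alternatives, 61 moved by less than the SD of 1 probe set of like signal and 16 by more. Of these 16, spike-in scaling gave 8, because it shifts every gene, and the sign turned for Pabpc1 (quantile normalization, loess and spike-in scaling) and Paip2 (spike-in scaling). The count of members at least 2-fold lower stayed at 3 under every scaling, floor and probe set mean, was 2 at 3-fold and fell to 1 without probe sets named _s_at, _x_at or _a_at, which leaves 5 members compared and removes Ybx2 and Ybx3 by construction, so the difference between germ cell and general members has no value there. At 1.5-fold 2 members, Pabpc4 and Paip1, were higher, against 0 at 2-fold. Their log2 ratios were 0.55 and 0.43 with the mean over probe sets and 0.38 and 0.44 with spike-in scaling, all less than 1.5-fold. The median of the general members was -0.19 with loess and -0.33 with spike-in scaling. The difference of Pabpc2 and Ybx2 from it was -1.46 under a 60th percentile floor and -2.15 with a pseudocount of 10, both through the dim signal of Pabpc2. Over all genes, spike-in scaling gave 498 genes lower and 7 higher, and the counts of genes higher ran from 7 to 132 over these settings, the highest under a 25th percentile floor. No paired analysis was possible because each genotype has 1 array. Arrays do not count molecules, so signal over the floor limits Pabpc2, whose UBR2-/- signal was just above it, and Papolb, Pgk2 and Acr, whose UBR2-/- signals were under it.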

Other observations

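Of the 89 compared genes in the 7 lists outside the members, 3 are X-linked, and all 3 had a log2 ratio above the median of all genes: Fmr1, which restrains translation, with 825 and 1175.5 (0.51), the termination factor gene Gspt2 with 193.8 and 236 (0.28) and the cleavage factor gene Cstf2 with 402.6 and 476.6 (0.24). Of the 86 autosomal genes, 26 lay above it. The 3 genes were picked out after their values were seen, with earlier results of these data known, so they are no independent support. X-linked and autosomal genes were not compared over the whole arrays here. With spike-in scaling, whose controls had a median of 0.35, Gspt2 and Cstf2 would lie below 0. The median of all genes also falls, to -0.27, so this scaling does not take them below that median.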
